A study of Mus musculus with 13 samples.

Results

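The data describe 10 genes of natural killer (NK) and cytotoxic lymphocytes in whole parametrial white adipose tissue (pmWAT). They are the receptor genes *Ncr1*, *Klrd1* and *Klrk1*, the granule genes *Nkg7*, *Gzma*, *Gzmb* and *Prf1*, the transcription factor genes *Eomes* and *Tbx21*, and *Ifng*. The members were listed by symbol, and all 10 were found among the 33618 Ensembl genes of the count table. Control mice carried 2 floxed *Lmna* alleles and no Cre (*Lmna* fl/fl, n = 7). Knockout mice (*Lmna* iADKO, n = 6) were floxed in the same way and carried *Adipoq*-CreERT2, a tamoxifen-inducible Cre driven by the adiponectin promoter, so deletion is directed to adipocytes and not to lymphocytes. All 13 mice were female, received tamoxifen at 50 mg/kg for 5 days at 12 to 14 weeks of age, and were analyzed 2 weeks later, with 1 RNA-Seq library per mouse. The controls therefore share the floxed alleles and the tamoxifen but lack the Cre.

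NK cells are innate lymphocytes that kill stressed or infected cells by releasing perforin and granzymes. CD8+ T cells use the same granule proteins, and type 1 innate lymphoid cells (ILC1) share several receptors with NK cells. In visceral fat these cells are a known source of interferon-gamma, which acts on macrophages.

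Gene counts summed to 18854223 to 19776491 per library, and levels are given as CPM, the TMM-normalized count relative to library size. The 10 members together drew only 228 to 417 counts per mouse in fl/fl and 500 to 612 in iADKO, so each value below rests on few reads. The gene-level count of *Lmna* did not fall with the iADKO label, at 80.1 to 109 CPM against 74.7 to 98.5 CPM in fl/fl (log2 fold change 0.19, standard error 0.079, adjusted p = 0.0785), and each direction given here rests on the labels. A pair of libraries stood near the other genotype in several marker lists: fl/fl replicate 5 had the highest macrophage marker sum of its genotype, and iADKO replicate 6 the lowest of its own.

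NK and cytotoxic genes were higher in the libraries labelled iADKO. Of the 9 members with enough counts to be tested, 6 were higher at an adjusted p under 0.05 and 0 were lower (edgeR quasi-likelihood test, adjusted over all 16753 genes tested). *Eomes* rose by 0.99 on the log2 scale, and *Ncr1*, *Gzmb*, *Klrd1*, *Nkg7* and *Klrk1* rose by 0.50 to 0.64, which is 1.42-fold to 1.56-fold. *Tbx21*, *Prf1* and *Gzma* had positive log2 fold changes of 0.41, 0.35 and 0.15 without passing. *Ifng* had too few counts to be tested. Over all genes, 30.5% were called in either direction and 14.1% were called higher. The median log2 fold change was 0.59 over the 9 members tested and 0.03 over all genes. In whole tissue, a change in the number of cells of a type and a change in RNA per cell cannot be told apart.

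**Figure D1:**
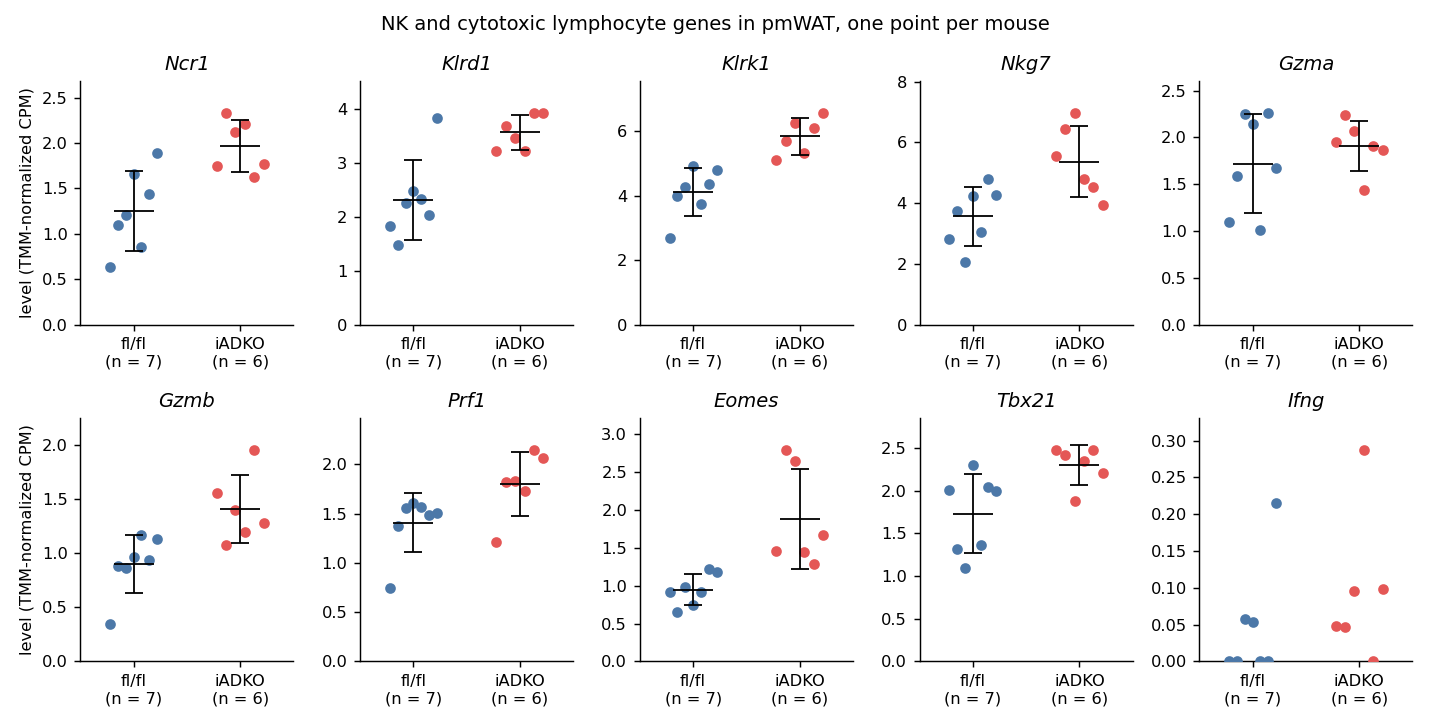
Level of each of the 10 genes in TMM-normalized CPM (vertical axis from 0), with 1 point per mouse, 7 fl/fl and 6 iADKO. Bars give the mean and the SD, and none is drawn for *Ifng*, which rests on 18 counts in all. For *Klrk1* and *Eomes* every iADKO mouse lies above every fl/fl mouse. For *Gzma* the groups reach nearly the same upper level, and 2 fl/fl mice lie below every iADKO mouse.

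Since 6 members rose together, the 250 bases before the RefSeq transcription start were searched for 3 short motifs bound by factors of these cells. These were the T-box motif GTGTGA, bound by the family of T-bet and EOMES, the RUNX motif TGTGGT and the STAT motif TTCNNNGAA, each on both strands. RefSeq windows (build GRCm38.p6) were given for 9 members and not for *Klrd1*. The T-box motif was found in 3 of the 9 windows, against 12.2% of all 27025 promoter windows of that length. The RUNX motif was found in 6 of the 9, against 14.2% of all windows. The STAT motif was found in 2, against 7.18%. No 2 of these matches overlapped in the windows shown. A match is a string of letters and not a bound site. The windows of 4 receptor and granule genes that rose are shown because they hold the RUNX motif. *Prf1* and *Gzma*, which did not pass, hold the RUNX motif as well and are not shown. That of *Eomes* is shown because the largest change came with no match to any of the 3. Capitals mark the matches, and each sequence reads 5′ to 3′ on the strand of its gene. The *Ncr1* window is chr7:4337465-4337714 (plus strand), with a T-box match that starts 80 bases before the start and RUNX matches at 176 and 41. The *Klrk1* window is chr6:129623865-129624114 (minus strand), with 1 RUNX match at 129. That of *Nkg7* is chr7:43436888-43437137 (plus strand), with a T-box match at 12, a RUNX match at 83 and a STAT match at 220. That of *Gzmb* is chr14:56262335-56262584 (minus strand), with a T-box match at 15 and RUNX matches at 93 and 34. The *Eomes* window is chr9:118477939-118478188 (plus strand).
Ncr1: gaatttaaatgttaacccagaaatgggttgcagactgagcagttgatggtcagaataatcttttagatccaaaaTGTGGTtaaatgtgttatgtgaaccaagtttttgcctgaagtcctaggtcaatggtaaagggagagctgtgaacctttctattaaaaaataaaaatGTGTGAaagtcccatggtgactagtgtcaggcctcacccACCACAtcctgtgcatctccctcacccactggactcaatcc
Klrk1: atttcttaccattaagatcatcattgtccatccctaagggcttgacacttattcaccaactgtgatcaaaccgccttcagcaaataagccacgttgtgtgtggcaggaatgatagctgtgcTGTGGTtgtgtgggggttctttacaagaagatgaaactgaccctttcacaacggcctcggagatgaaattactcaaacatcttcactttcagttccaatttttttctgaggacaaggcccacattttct
Nkg7: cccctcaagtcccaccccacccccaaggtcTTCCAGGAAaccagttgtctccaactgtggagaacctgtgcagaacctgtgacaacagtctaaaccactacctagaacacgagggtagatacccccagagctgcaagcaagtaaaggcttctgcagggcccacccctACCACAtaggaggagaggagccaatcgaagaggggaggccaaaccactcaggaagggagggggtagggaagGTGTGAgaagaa
Gzmb: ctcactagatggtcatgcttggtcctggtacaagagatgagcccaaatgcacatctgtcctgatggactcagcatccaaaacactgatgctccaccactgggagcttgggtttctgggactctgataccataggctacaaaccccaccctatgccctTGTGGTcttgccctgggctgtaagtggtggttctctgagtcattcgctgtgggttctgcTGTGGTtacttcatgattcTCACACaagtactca
Eomes: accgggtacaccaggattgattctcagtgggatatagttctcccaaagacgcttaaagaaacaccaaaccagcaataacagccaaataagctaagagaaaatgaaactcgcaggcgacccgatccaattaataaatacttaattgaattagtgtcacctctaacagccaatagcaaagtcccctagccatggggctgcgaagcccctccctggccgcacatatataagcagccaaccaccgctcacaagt

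The 3 receptor genes all rose in iADKO. *Ncr1* (ENSMUSG00000062524; chr7:4340710-4348171 of GRCm39) encodes NKp46, an activating receptor that marks NK cells and ILC1. Its level ran from 0.632 to 1.89 CPM in fl/fl (median 1.21) and from 1.62 to 2.33 CPM in iADKO (median 1.94). Replicates 4 and 7 of fl/fl reached into the iADKO range and the other 5 lay below every iADKO mouse. The log2 fold change was 0.64 (standard error 0.22, adjusted p = 0.0375), and the exact two-sided permutation test of log2 CPM over the 13 mice had p = 0.0105. *Klrd1* (ENSMUSG00000030165; chr6:129568677-129575738) encodes CD94, which pairs with NKG2 chains to bind the nonclassical MHC protein Qa-1. It was at 1.48 to 3.83 CPM in fl/fl (median 2.25) and 3.21 to 3.93 CPM in iADKO (median 3.58). All fl/fl mice except replicate 7, at 3.83 CPM, lay below every iADKO mouse. Its log2 fold change was 0.62 (standard error 0.18, adjusted p = 0.0177, and p = 0.00583 in the exact permutation test). *Klrk1* (ENSMUSG00000030149; chr6:129587286-129600827) encodes NKG2D, an activating receptor of NK and CD8+ T cells for stress-induced ligands. It was at 2.7 to 4.94 CPM in fl/fl (median 4.28) and 5.11 to 6.58 CPM in iADKO (median 5.90), with no overlap between genotypes. Such separation in this direction was found for 2.71% of all genes tested and for 2 of the 9 members. The *Klrk1* log2 fold change was 0.50 (standard error 0.13, adjusted p = 0.00977), and the exact permutation test gave p = 0.00175.

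The granule genes were less uniform, and 2 of the 4 passed the test. *Nkg7* (ENSMUSG00000004612; chr7:43086497-43087678) encodes a granule membrane protein needed for their exocytosis. It ran from 2.08 to 4.80 CPM in fl/fl (median 3.73) and from 3.93 to 6.98 CPM in iADKO (median 5.17). Replicates 1 to 3 of iADKO lay above every fl/fl mouse, while replicates 4 to 6 overlapped with the upper fl/fl mice. Its log2 fold change was 0.59 (standard error 0.19, adjusted p = 0.0311, exact permutation p = 0.0163). *Gzmb* (ENSMUSG00000015437; chr14:56496295-56499717) encodes granzyme B, a serine protease that triggers apoptosis in target cells. It was at 0.345 to 1.16 CPM in fl/fl (median 0.938), from 6 to 23 reads per mouse, and at 1.07 to 1.96 CPM in iADKO (median 1.34), from 23 to 41 reads. Of the 6 iADKO mice, 5 lay above every fl/fl mouse, and replicate 2 did not. The log2 fold change was 0.64 (standard error 0.23, adjusted p = 0.046, exact permutation p = 0.00466).

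*Prf1* (ENSMUSG00000037202; chr10:61133546-61140461) encodes perforin, the pore through which granzymes enter the target. It was at 0.747 to 1.61 CPM in fl/fl (median 1.51) and 1.22 to 2.15 CPM in iADKO (median 1.82). Of the 6 iADKO mice, 5 were above every fl/fl mouse, and iADKO replicate 1, at 1.22 CPM, was below all of them except fl/fl replicate 1. The log2 fold change of 0.35 (standard error 0.18) had an adjusted p of 0.156, and the exact permutation test gave p = 0.0589. *Gzma* (ENSMUSG00000023132; chr13:113230355-113237524), the gene of granzyme A, another serine protease, was at 1.01 to 2.26 CPM in fl/fl (median 1.67) and 1.44 to 2.24 CPM in iADKO (median 1.93). The highest *Gzma* value was that of fl/fl replicate 6, and no iADKO mouse exceeded it. The log2 fold change was 0.15 (standard error 0.20, adjusted p = 0.584, exact permutation p = 0.36). Whether *Gzma* and *Gzmb* differ in their change was not tested.

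The transcription factor genes *Eomes* and *Tbx21* encode related T-box proteins, EOMES and T-bet, which set NK and cytotoxic T cell programs and switch on *Ifng*. *Eomes* (ENSMUSG00000032446; chr9:118307280-118315200) was at 0.659 to 1.21 CPM in fl/fl (median 0.92) and 1.29 to 2.80 CPM in iADKO (median 1.56). The genotypes did not overlap, and within iADKO replicates 2 and 3, at 2.80 and 2.65 CPM, stood above the other 4 mice, at 1.29 to 1.67 CPM. The log2 fold change was 0.99 (standard error 0.23, adjusted p = 0.0054), and the exact permutation test gave p = 0.000583, the smallest that 7 mice against 6 allow. *Gm33460*, an antisense long noncoding RNA gene that overlaps *Eomes*, had 16 reads in all mice together, against 357 for *Eomes*. Another such gene, *Gm33408*, is not in the count data, so its reads are not known. The setting of strand in the counting is not given in the sources used here. *Tbx21* (ENSMUSG00000001444; chr11:96988897-97006158) was at 1.10 to 2.31 CPM in fl/fl (median 1.99) and 1.88 to 2.48 CPM in iADKO (median 2.39). Of the fl/fl mice, 4 lay within the iADKO range and the other 3 below it. Its log2 fold change was 0.41 (standard error 0.17) with an adjusted p of 0.088, and the exact permutation test had p = 0.0291.

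*Ifng* (ENSMUSG00000055170; chr10:118276951-118281797) encodes interferon-gamma and was barely detected. In fl/fl replicates 1 to 7 it had 0, 0, 1, 1, 0, 0 and 4 counts, and in iADKO replicates 1 to 6 it had 1, 1, 2, 6, 0 and 2 counts. A count of 0 allows up to 3 counts, which is 0.152 to 0.173 CPM in fl/fl and 0.14 to 0.147 CPM in iADKO, counting error only. Thus 6 of the 18 reads came from fl/fl and 12 from iADKO, and at this depth no difference was detectable (exact permutation test of log2 CPM, two-sided p = 0.297). A fit without a filter on low counts gave it an adjusted p of 0.492.

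**Figure D2:**
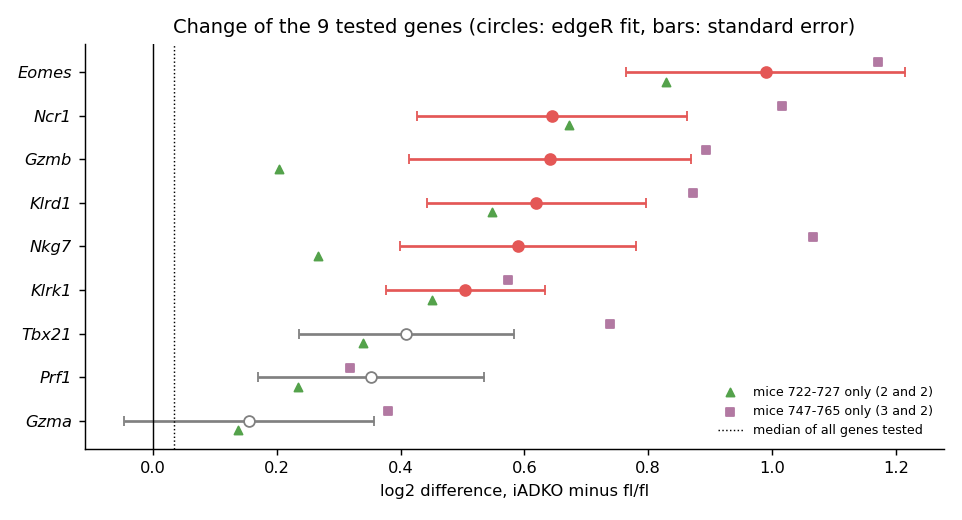
Log2 difference between iADKO and fl/fl (horizontal axis) for the 9 genes tested. Circles with standard error bars are the fit over all mice, filled where the adjusted p was under 0.05, and triangles and squares are differences in mean log2 CPM within mice whose animal numbers lie close together. All values are positive, from 0.14 for *Gzma* within the mice numbered 722 to 727 to 1.17 for *Eomes* within those numbered 747 to 765.

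Levels of different genes can be compared only per length, here as CPM per kb of merged exons. In fl/fl, *Nkg7* was the most abundant member at 3.88 ± 1.05 CPM per kb (SD, n = 7), followed by *Klrd1* at 1.74 ± 0.556 and *Gzma* at 1.11 ± 0.342. *Ncr1*, *Tbx21*, *Gzmb*, *Klrk1* and *Prf1* followed at 0.804, 0.697, 0.626, 0.572 and 0.531 CPM per kb. From *Gzma* to *Prf1* each gene lay within 1 SD of its neighbour in that order. *Eomes* was lower, at 0.228 ± 0.0494 CPM per kb. The merged exons of *Klrk1* span 7194 bases over all its annotated isoforms, which lowers its value per kb. In iADKO *Nkg7* and *Klrd1* again led, at 5.84 ± 1.27 and 2.67 ± 0.244 CPM per kb (SD, n = 6), and *Eomes* was again the lowest of the tested members at 0.453 ± 0.159.

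The strength of the calls differed between members. *Klrd1*, *Klrk1* and *Eomes* passed in each of the 13 fits that left out 1 mouse, with log2 fold changes of 0.54 to 0.78, 0.42 to 0.55 and 0.84 to 1.08. *Nkg7* did not pass without fl/fl replicate 1 (adjusted p = 0.0629) or without iADKO replicates 1, 2 or 3 (0.0529, 0.0707 and 0.0768). *Ncr1* did not pass without fl/fl replicates 1, 2, 3 or 5 (0.0581, 0.066, 0.0617 and 0.0506) or iADKO replicates 2, 3 or 4 (0.0807, 0.0702 and 0.0749). *Gzmb* did not pass without fl/fl replicates 1, 2, 3, 4 or 6 (0.0502, 0.071, 0.0734, 0.0635 and 0.0675) or iADKO replicates 1, 3, 4 or 5 (0.0804, 0.0734, 0.0573 and 0.112). The log2 fold changes of these 3 genes stayed between 0.49 and 0.77 in those 13 fits. Without fl/fl replicate 1 or without iADKO replicate 3, 3 members passed in place of 6. Without both fl/fl replicate 5 and iADKO replicate 6, 5 members passed, and *Ncr1* had an adjusted p of 0.0628.

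The library names carry animal numbers, and both genotypes occur in only 2 ranges of them. Among mice 722 to 727, 2 of each genotype, the difference in mean log2 CPM was 0.83 for *Eomes*, 0.67 for *Ncr1*, 0.55 for *Klrd1*, 0.45 for *Klrk1*, 0.27 for *Nkg7* and 0.20 for *Gzmb*. Among mice 747 to 765, 3 fl/fl and 2 iADKO, the same genes differed by 1.17, 1.02, 0.87, 0.57, 1.07 and 0.89. With the number range as a block, mice of a range that holds 1 genotype add nothing to the difference, so fewer mice are compared. In that fit, 3 members passed (*Klrd1*, *Ncr1* and *Eomes*). *Klrk1* then had an adjusted p of 0.0521, and over all genes 1986 were called in place of 5104.

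The genes of other NK receptors and their adaptors shifted the same way. Of 29 listed, 22 were tested, 8 were higher, 0 were lower, and the median log2 fold change was 0.61, with positive values for all 22. *Slamf7*, a receptor of NK cells that macrophages and plasma cells also carry, rose from 21.8 ± 8.92 to 42.2 ± 6.13 CPM (log2 fold change 0.95, adjusted p = 0.00629). *Tyrobp*, the signaling adaptor DAP12, abundant in macrophages too, rose by 0.93 (adjusted p = 0.0162). The lectin-like receptor genes *Klri2* and *Klrb1a*, at 0.751 and 0.419 CPM in fl/fl, rose by 0.94 and 0.88 (adjusted p = 0.0113 and 0.0143). *Klrb1c* and *Klre1*, also chosen as markers of NK cells and ILC1, had log2 fold changes of 0.68 and 0.41 without passing (adjusted p = 0.0543 and 0.0709). Genes of the *Klra* family resemble each other closely, and reads shared between them may have been split or dropped in counting.

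Of 20 other granule, exocytosis and death-ligand genes, 15 were found in the count data and 13 were tested. Of the 13, 4 were higher, 0 were lower, and the median log2 fold change was 0.34. *Unc13d*, which encodes the granule priming factor Munc13-4, rose from 8.63 ± 2.16 to 14.4 ± 1.67 CPM (log2 fold change 0.73, adjusted p = 0.00251). *Ctsw*, a cathepsin gene of cytotoxic lymphocytes, rose by 0.47 (adjusted p = 0.019). *Rab27a*, a GTPase of granule docking, and *Ctsc*, whose product activates granzymes, rose by 0.34 and 0.29 (adjusted p = 0.00943 and 0.0321). Their means in fl/fl were 15.2 and 202 CPM, and which cells of the tissue carry them was not tested. *Gzmm*, *Cst7* and *Fasl* did not pass (log2 fold change 0.35, 0.56 and 0.35, edgeR adjusted p = 0.173, 0.0728 and 0.324).

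Among 14 other transcription factors and signaling genes of these cells, all tested, 4 were higher and 1 lower, with a median of 0.25. *Id2*, an inhibitor of E proteins needed for innate lymphoid cells, rose by 0.58 (adjusted p = 0.00672), and *Txk*, a Tec-family kinase of T and NK cells, rose by 0.56 (adjusted p = 0.0143) with no overlap between genotypes. *Prdm1* and *Ikzf3*, which encode Blimp-1 and Aiolos, rose by 0.55 and 0.51 (adjusted p = 0.0199 and 0.00655). The gene that was lower was *Stat5a*, which encodes a transducer of IL-2 and IL-15 signals and was picked here after its value was seen. Its log2 fold change was -0.38 (adjusted p = 0.0019).

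Of 15 genes of cytokines that act on NK cells and of their receptors, 14 were tested, 8 were higher and 1 was lower, with a median of 0.47. *Il12b*, which encodes the p40 chain of IL-12, rose from 0.435 ± 0.221 to 1.01 ± 0.457 CPM (log2 fold change 1.20, adjusted p = 0.0296), and *Il12rb2*, a chain of its receptor, rose by 0.78 (adjusted p = 0.0123). *Il7r* and *Il21r*, cytokine receptor genes of lymphocytes, rose by 0.90 and 0.76 (adjusted p = 0.00614 and 0.0249). *Il15ra* encodes the chain that presents IL-15 to NK cells and was named after its value was seen. It fell by 0.62 on the log2 scale (adjusted p = 3.09e-04) with no overlap between genotypes.

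Of 16 genes of chemokines and receptors of cytotoxic lymphocytes, 15 were tested, 5 were higher, 0 were lower, and the median was 0.49. *Cxcl10*, a ligand of the receptor CXCR3, rose from 2.88 ± 0.926 to 9.31 ± 1.13 CPM without overlap (log2 fold change 1.69, adjusted p = 1.62e-04). *Cxcl9*, also a CXCR3 ligand gene, was named after its value was seen and leaned the other way without passing. Its mean was 30.4 CPM in fl/fl and 20.6 CPM in iADKO (log2 fold change -0.56, edgeR adjusted p = 0.0627). *Cxcr3* itself did not pass (log2 fold change 0.32, edgeR adjusted p = 0.0787), and *Cxcl11* had too few counts to be tested. *Ccl4* and *Xcl1*, chemokine genes that NK and CD8+ T cells express, rose by 1.22 and 1.12 (adjusted p = 0.0178 and 0.0184). *Xcr1*, the XCL1 receptor of cross-presenting dendritic cells, rose by 0.59 (adjusted p = 0.0287).

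Of 14 genes for ligands of NK receptors, 10 were found in the count data and 7 were tested. Of the 7, 2 were higher, and the median was 0.25. These were *H2-T23*, the Qa-1 gene whose product CD94 binds, at 0.31 (adjusted p = 0.0116), and *Pvr*, at 0.25 (adjusted p = 0.0118), whose product is a ligand of DNAM-1 and TIGIT. The NKG2D ligand genes *Raet1d*, *H60b* and *H60c* had too few counts to be tested. *Ulbp1* and *Raet1e*, also NKG2D ligand genes, were tested and did not pass (log2 fold change 0.22 and 0.54, adjusted p = 0.312 and 0.104). Genes of the response to interferon-gamma were near the background. Of 22 listed, 21 were tested, 3 were higher and 1 lower, and the median was 0.06. *Ciita*, the regulator of MHC class II genes, rose by 0.77 (adjusted p = 8.56e-04), *Irf8* by 0.67 (adjusted p = 0.00279) and *Ifngr2*, a receptor chain, by 0.36 (adjusted p = 0.00948).

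**Figure D3:**
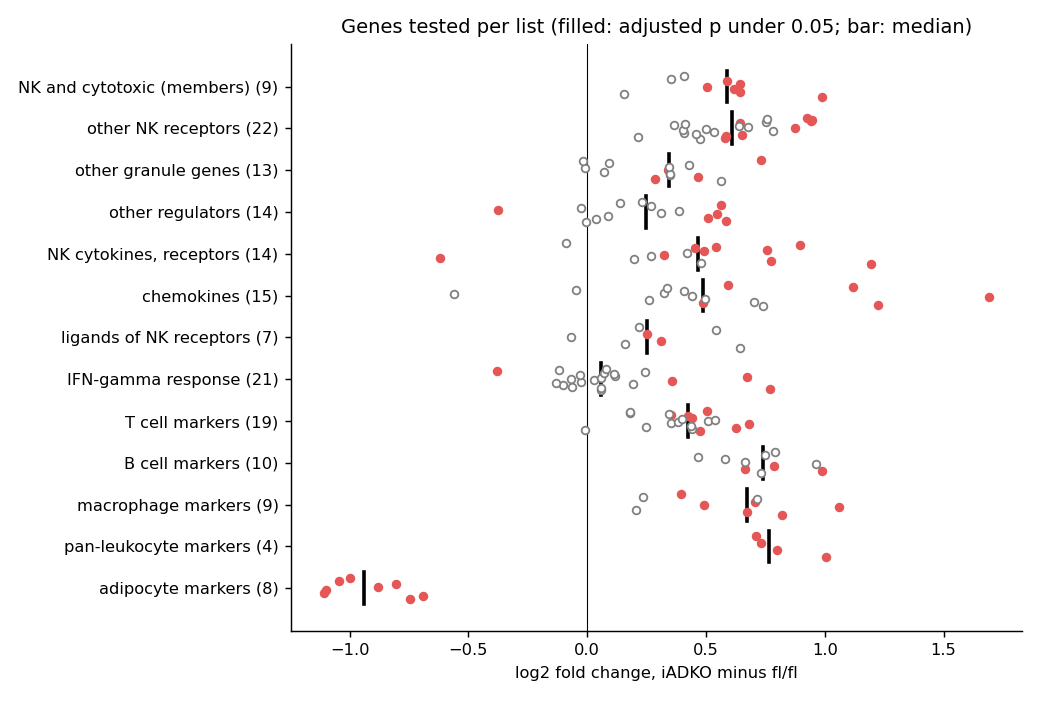
Log2 fold change between iADKO and fl/fl (horizontal axis) of every tested gene in 13 lists, with the number tested in parentheses. Filled points passed at an adjusted p under 0.05, open points did not, and black bars are medians. The median was 0.59 for the NK and cytotoxic genes, 0.42 for T cell markers, 0.77 for pan-leukocyte markers and -0.94 for adipocyte markers.

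Markers of other cell types moved with the same labels. Of 19 T cell markers, all tested, 7 were higher and 0 lower, with a median of 0.42. *Cd4* and *Cd3d* rose by 0.68 and 0.63 (adjusted p = 0.00346 and 0.00444) with no overlap between genotypes, and *Zap70* and *Cd2* by 0.51 and 0.48 (adjusted p = 0.0211 and 0.0142). The summed level of the T cell markers was 56.3 to 83.3 CPM in fl/fl and 86 to 105 CPM in iADKO. The sum of the 10 NK and cytotoxic genes was 13.1 to 22.5 CPM and 24 to 28.7 CPM. The ratio of these sums had a mean of 0.249 in fl/fl (0.194 to 0.279) and 0.275 in iADKO (0.229 to 0.308), so that it leaned higher in iADKO but overlapped between genotypes where both sums did not. The granule genes, *Tbx21*, *Klrd1* and *Klrk1* are also expressed by cytotoxic T cells. Of the T cell markers, 12 did not pass. *Cd8a* and *Cd8b1* were among them (log2 fold change 0.51 and 0.54, edgeR adjusted p = 0.0929 and 0.182). So were *Cd3e* and *Cd3g* (0.25 and 0.44, edgeR adjusted p = 0.237 and 0.161).

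All 4 pan-leukocyte genes rose, *Cd52* by 1.00, *Coro1a* by 0.80, *Laptm5* by 0.73 and *Ptprc*, the CD45 gene, by 0.71 (adjusted p = 0.0107, 0.00173, 0.0134 and 0.00846). Their sum was 301 to 654 CPM in fl/fl and 490 to 773 CPM in iADKO. The ratio of the NK and cytotoxic sum to this sum had a mean of 0.0485 in fl/fl (0.0245 to 0.0639) and 0.0399 in iADKO (0.0317 to 0.0518), so that it leaned lower in iADKO, with overlap and no test. Of 9 macrophage markers 6 were higher and 0 lower, with a median of 0.67. *Cd68* rose by 1.06, *Adgre1* by 0.82, *Fcgr1* by 0.70 and *C1qa* by 0.67 (adjusted p = 0.0118, 0.00563, 0.0112 and 0.00661). Their sum was 2034 to 5274 CPM in fl/fl and 3070 to 5292 CPM in iADKO. Of 10 B cell markers 3 were higher (*Cd22*, *Cd79b* and *Cd79a*) and 0 lower, with a median of 0.74 and sums of 481 to 2699 CPM and 663 to 2768 CPM. Single genes weighed heavily in the macrophage and B cell sums. In fl/fl the mean of *Lyz2* was 1360 CPM, against 2868 CPM for the macrophage sum. That of *Ighm* was 1041 CPM, against 1099 CPM for the B cell sum. Neither gene passed (edgeR adjusted p = 0.103 and 0.444). All 8 adipocyte markers fell, with a median of -0.94. *Cidec* fell by 1.11, *Lep* by 1.10, *Plin4* by 1.04 and *Pnpla2* by 0.999 (adjusted p = 3.94e-04, 0.0228, 6.88e-04 and 6.4e-04), and the sum was 16594 to 24000.5 CPM in fl/fl and 9856 to 16692 CPM in iADKO. The part of these markers in the result on NK and cytotoxic genes was not tested.

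In the mouse with the highest macrophage and leukocyte sums among fl/fl, the summed NK and cytotoxic genes were not high. Fl/fl replicate 5 had 5274 CPM of macrophage markers, 654 CPM of pan-leukocyte markers and 2699 CPM of B cell markers, each the highest of its genotype and within the iADKO range. The B cell sum was mostly *Ighm*, and *Lyz2* made up much of the macrophage sum. *Gzmb* was at its highest fl/fl level in fl/fl replicate 5, at 1.16 CPM. The 10 NK and cytotoxic genes of this mouse summed to 16 CPM, near the fl/fl median of 16.6 CPM. Their raw sum of 316 counts was the fl/fl median. Conversely, iADKO replicate 6 had the lowest macrophage and leukocyte sums of its genotype (3070 and 490 CPM) but 25.4 CPM of NK and cytotoxic genes, close to the iADKO median of 25.7 CPM. The fl/fl mice with the highest NK and cytotoxic sums were replicates 4, 6 and 7, at 21.2, 20.6 and 22.5 CPM, and fl/fl replicate 1 was the lowest at 13.1 CPM and the lowest of its genotype in 4 of the 9 tested members.

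**Figure D4:**
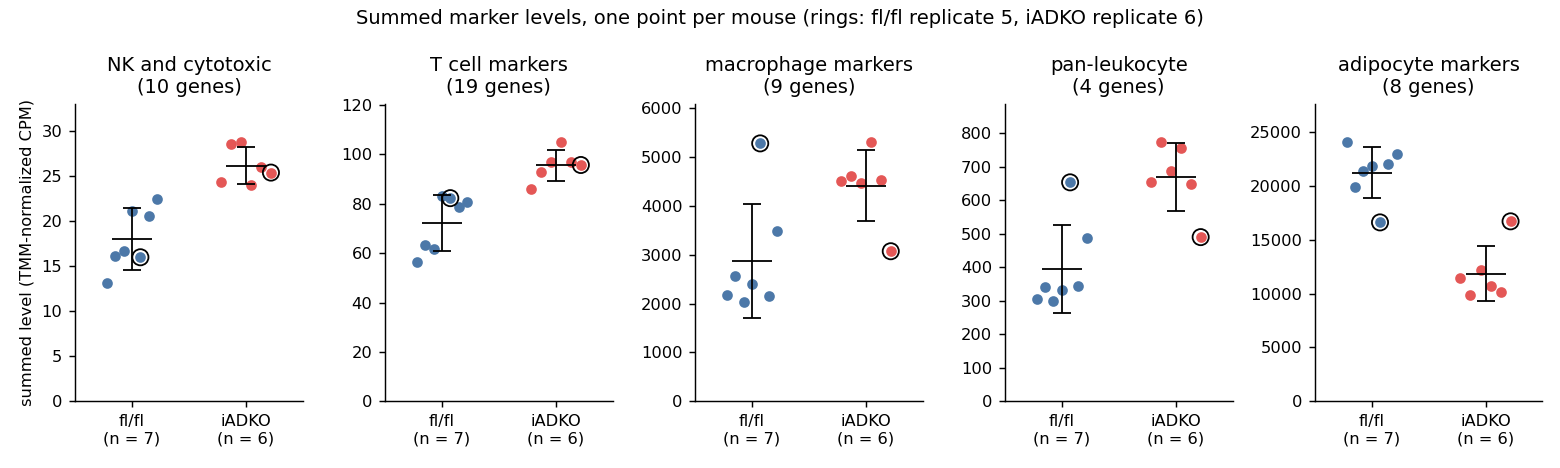
Summed TMM-normalized CPM (vertical axes from 0) of 5 gene lists, with 1 point per mouse and the mean and SD as bars. Rings mark fl/fl replicate 5 and iADKO replicate 6. Both lie in the range of the other genotype in macrophage and pan-leukocyte markers. They do not in the NK and cytotoxic genes, at 16 and 25.4 CPM. Replicate 5 itself sets the top of the fl/fl range in both marker lists. Fl/fl replicate 7 also lies in the iADKO range of macrophage markers.

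The genes outside the list whose pattern over the 13 mice was most like the mean of the 9 tested members were *Il2rb*, *Nfatc4*, *Dcaf15*, *Ccl5* and *Tespa1*, with Pearson coefficients of 0.942, 0.927, 0.917, 0.91 and 0.905 over 13 mice, which include the difference between genotypes. They are the top 5 of all genes tested and are given as a description. *Il2rb*, the receptor chain shared by IL-2 and IL-15 and a mark of NK cells, had a mean of 13 ± 1.65 CPM in the 7 fl/fl mice and of 17.8 ± 1.08 CPM in the 6 iADKO mice (SD). *Ccl5*, a chemokine gene of cytotoxic lymphocytes, was at 7.48 ± 1.51 and 10.5 ± 0.938 CPM, and *Tespa1*, a gene of T cell receptor signaling, at 1.40 ± 0.293 and 2.18 ± 0.185 CPM. *Nfatc4*, a calcium-regulated transcription factor gene, and *Dcaf15*, a ubiquitin ligase adaptor gene, were at 25.3 ± 2.08 and 30.9 ± 2.19 CPM and at 15.4 ± 1.41 and 19.2 ± 0.542 CPM.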

How the data were processed

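RNA-Seq libraries were strand-specific and made from mRNA of whole pmWAT, 1 for each of 7 fl/fl and 6 iADKO mice. Per the labels and the study's methods, reads were checked with FastQC 0.12.1 and aligned with STAR 2.7.11a to mm39. The counting tool, the gene annotation and the strand setting are not given in the sources used here. The authors deposited raw counts per Ensembl gene without normalization, and log2 values made from them with DESeq2's regularized log (rlog), used here only in an alternative. Sample titles gave genotype and replicate number.

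Symbols and GRCm39 coordinates came from GENCODE vM39, which held 33184 of the 33618 identifiers. In R 4.3.3, genes were filtered with filterByExpr of edgeR 4.0.16, normalized by TMM and compared by the robust quasi-likelihood test, with Benjamini-Hochberg adjustment over all 16753 genes tested. The standard error is the log2 fold change divided by the root of F. Log2 CPM used a prior count of 2. Single genes were also compared by exact two-sided permutation of the labels. The fits were tested on simulated counts. Alternatives were DESeq2 size factors, DESeq2 1.42.0 with its Wald test, both a stricter filter (a minimum of 10 counts in all libraries) and none, blocks by replicate number or animal-number range, limma 3.58.1 on the rlog values, and each mouse left out. Library sizes without TMM factors, and the joint omission of fl/fl replicate 5 and iADKO replicate 6, were added after the data were seen. Gene counts summed to 18854223 to 19776491 per library. Libraries of a genotype differed by more than sampling noise (chi-square per degree of freedom 8.16 to 88.8).

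The members and the related lists were chosen with earlier results of these data known. All members are named, and from each other list at most the 4 genes with the largest absolute log2 fold change among those past the threshold, with exceptions stated, together with *Lmna* and the 5 genes of most similar pattern. A gene that this rule would name is not reported here.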

Additional observations from a re-analysis of the deposited data

Results flagged for a closer look

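In 20 groups (10 genes in 2 genotypes), 5 held a mouse far from the others of its genotype by Dixon's ratio. For normally distributed values chance gives about 1 in 20, a rate that the low *Ifng* counts, with zeros and ties, need not follow. *Klrd1* was at 3.83 CPM in fl/fl replicate 7, against 1.48 to 2.47 CPM in the other fl/fl mice. *Gzmb* was at 0.345 CPM in fl/fl replicate 1, against 0.867 to 1.16 CPM, and *Prf1* was at 0.747 CPM in the same mouse, against 1.37 to 1.61 CPM. *Ifng* was at 0.216 CPM in fl/fl replicate 7, against at most 0.0578 CPM, and at 0.288 CPM in iADKO replicate 4, against at most 0.0982 CPM. These *Ifng* values rest on 4 and 6 counts.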

How the results depend on the processing

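All 9 tested members kept a positive log2 fold change under every alternative that could fit them. Over the 9 members and their alternatives, 167 values kept their side of the threshold, 28 no longer passed and 2 newly passed. The same 6 members were higher with DESeq2 size factors, with the DESeq2 Wald test and with limma on the rlog values, 4 without a filter on low counts (*Ncr1* and *Gzmb* did not pass) and 5 of 8 with at least 10 counts in every sample, where *Gzmb* had too few. Leaving out 1 mouse gave 3 to 6 members and 3998 to 6604 genes over all. With the animal-number range as a block, which compares genotypes only within the ranges that hold both, 3 members and 1986 genes passed (784 higher, 1202 lower). Library sizes without TMM factors raised the median log2 fold change of all genes by 0.20, giving 0.24, and gave 8673 calls (7397 higher, 1276 lower), of which 85.3% were higher against 46.4% with TMM, and let 8 members pass, *Prf1* and *Tbx21* among them. The replicate number as a block, without fl/fl replicate 7, left 4 members (*Klrd1*, *Klrk1*, *Ncr1* and *Eomes*) and 4833 genes. Same-numbered mice had residual correlations of -0.03 to 0.22 across genes, not above 0.1 in every pair. Mice with different numbers were not compared in this way, so whether same-numbered mice share more than a number was not settled. *Ifng* differed by 0.41 with a prior count of 2 and 0.92 with 0.5. Depth limits *Ifng*, with 18 reads in all, and *Gzmb*, with 6 to 41 per mouse.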

Other observations

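Some markers of other cell types that can carry granzyme or NK receptor genes also differed between the labels. Of 9 markers of mast cells and plasmacytoid dendritic cells, 4 were higher and 0 lower, all of them mast cell protease genes. The plasmacytoid dendritic cell markers *Siglech* and *Ccr9* did not pass (log2 fold change 0.06 and 0.42, edgeR adjusted p = 0.808 and 0.132). Nor did *Tcf4*, *Kit* and *Ms4a2* of the same list (-0.04, -0.59 and 0.54, edgeR adjusted p = 0.557, 0.138 and 0.227). The mean of *Cma1* was 7.03 ± 1.70 CPM over the 7 fl/fl mice and 13.1 ± 2.06 CPM over the 6 iADKO mice (SD), with no overlap (log2 fold change 0.90, adjusted p = 0.00135 from the edgeR quasi-likelihood test). *Mcpt4*, *Cpa3* and *Tpsb2* rose by 0.88, 0.67 and 0.64 (adjusted p = 0.00199, 0.00228 and 0.00241). Of 8 markers of circulating NK cells and resident ILC1, 4 were higher and 0 lower. *Itga1* and *Tnfsf10* did not pass, with log2 fold changes of -0.22 and -0.02 (edgeR adjusted p = 0.0812 and 0.913). *Cxcr6* and *S1pr5* did not pass either, at 0.41 and 0.34 (edgeR adjusted p = 0.0896 and 0.427). *Cd200r1* and *Il7r*, associated with ILC1 and found on other leukocytes, rose by 1.02 and 0.90, and *Itga2* and *Spn*, carried by NK and T cells, rose by 0.51 and 0.45 (adjusted p = 0.00646, 0.00614, 0.0468 and 0.0172).

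Of 8 markers of ILC2 and regulatory T cells, 5 were tested, 3 were higher and 1 lower. *Foxp3* rose by 0.83, *Klrg1* by 0.64 and *Il1rl1* by 0.49, and *Rora* fell by 0.33 (edgeR adjusted p = 0.0128, 0.0324, 0.00861 and 0.0052). Among 6 neutrophil markers *Retnlg* alone passed, at 1.28 (adjusted p = 0.0098), and among 3 tested lymph node stroma markers *Cxcl13* alone passed, at 0.72 (adjusted p = 0.0184). The lymph node genes *Glycam1* and *Madcam1* had too few counts to be tested.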
